A study of Homo sapiens with 7 samples.

Results

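The 9 genes described here encode the HLA class I antigen presentation machinery: *HLA-B*, *HLA-C*, *HLA-E*, *B2M*, *TAP1*, *TAP2*, *PSMB8*, *PSMB9* and *NLRC5*. They were chosen by name, 9 of 56236 genes with a transcript in the data, and each gene's value is the sum over its transcripts. RNA-Seq had been performed in 2 established lines of esophageal squamous cell carcinoma (ESCC), TE5 and KYSE140. Cells of both lines expressed a non-targeting scramble shRNA, an shRNA against TP63 or an shRNA against SOX2, and TE5 cells also an shRNA against the long non-coding RNA CCAT1. There was 1 library per condition, 4 in TE5 and 3 in KYSE140, so a difference between a knockdown and its scramble has no replicate check. The shRNAs were delivered by lentivirus, and each line stands for 1 tumor. KYSE140 cells with CCAT1 shRNA were not analysed here.

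HLA class I molecules show peptides from inside the cell to CD8+ T cells. The proteasome cuts proteins into peptides, TAP1 and TAP2 pump the peptides into the endoplasmic reticulum, and there they are loaded onto a heavy chain paired with beta-2-microglobulin, the product of *B2M*. Interferon-gamma induces most of these genes, adds the immunoproteasome subunits and raises NLRC5, a co-activator of class I promoters, and tumors often lower them.

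On the GRCh37 build, 7 of the 9 genes lie in the major histocompatibility complex: *HLA-E* (ENSG00000204592) at chr6:30457286-30461971, *HLA-C* (ENSG00000204525) at chr6:31236526-31239907, *HLA-B* (ENSG00000234745) at chr6:31321649-31334844, *TAP2* (ENSG00000204267) at chr6:32789610-32806516, *PSMB8* (ENSG00000204264) at chr6:32808494-32812456, *TAP1* (ENSG00000168394) at chr6:32812986-32821593 and *PSMB9* (ENSG00000240065) at chr6:32811913-32827628. *B2M* (ENSG00000166710) is at chr15:45003556-45011049 and *NLRC5* (ENSG00000140853) at chr16:57023397-57117443. *PSMB9* lies on the other strand than *PSMB8* and *TAP1*, and its annotated span overlaps both. Reads from overlapping genes cannot be told apart without strand information, which was not given in the sources used here. The classical and non-classical class I genes are also near-copies of each other. Of the 31-base words in its transcripts, *HLA-B* shared 32.8% with other genes, *PSMB8* 21.7%, *TAP2* 20.9%, *HLA-C* 16.8%, *TAP1* 15.2%, *HLA-E* 11.8%, *PSMB9* 6.84% and *NLRC5* 0.30%, and *B2M* shared 0 words. A word counted as shared with any other gene on either strand, so overlapping genes enter these shares as well as copies.

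The promoters are shown because these genes are known as a co-regulated group. RefSeq windows of 300 bases (250 before and 50 after a start site, GRCh38.p14) were found for 7 of the 9 genes, with 9 windows in all. *HLA-E* and *NLRC5* had no entry. The bases upstream of the start are printed for 4 windows, with matches to 3 motifs in capitals: GAANNGAAA, which resembles an interferon response element, the CCAAT box, and the NF-kappaB consensus. Both strands were searched, and matches to different motifs do not overlap.
HLA-B, chr6:31357180-31357429, minus strand: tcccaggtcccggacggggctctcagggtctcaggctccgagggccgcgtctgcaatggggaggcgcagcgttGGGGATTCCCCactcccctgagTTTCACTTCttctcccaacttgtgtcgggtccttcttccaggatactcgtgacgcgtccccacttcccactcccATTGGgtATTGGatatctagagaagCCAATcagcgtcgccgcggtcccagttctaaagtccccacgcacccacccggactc
B2M, chr15:44711267-44711516, plus strand: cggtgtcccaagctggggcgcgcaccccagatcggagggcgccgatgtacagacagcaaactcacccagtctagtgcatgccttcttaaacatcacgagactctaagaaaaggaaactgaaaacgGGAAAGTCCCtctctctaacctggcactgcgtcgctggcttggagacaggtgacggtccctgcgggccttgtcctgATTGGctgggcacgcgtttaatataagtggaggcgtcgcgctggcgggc
TAP1, chr6:32853705-32853954, minus strand: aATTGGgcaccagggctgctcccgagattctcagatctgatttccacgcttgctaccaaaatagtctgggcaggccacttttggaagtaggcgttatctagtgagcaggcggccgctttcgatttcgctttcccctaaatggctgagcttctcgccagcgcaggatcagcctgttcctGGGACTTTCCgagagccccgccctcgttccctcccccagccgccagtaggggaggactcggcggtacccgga
PSMB8, chr6:32844680-32844929, minus strand: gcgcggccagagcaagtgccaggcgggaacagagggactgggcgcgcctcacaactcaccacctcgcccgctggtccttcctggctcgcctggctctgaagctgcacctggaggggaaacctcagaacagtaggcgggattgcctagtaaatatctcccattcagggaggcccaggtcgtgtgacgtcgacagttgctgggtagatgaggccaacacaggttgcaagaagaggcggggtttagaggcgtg
In *HLA-B* the NF-kappaB match (bases -177 to -167 from the start) lies next to the GAANNGAAA match (bases -155 to -147). *B2M* and *TAP1* hold an NF-kappaB match at bases -125 to -116 and -72 to -63, respectively. The *PSMB8* window printed holds none of these letters, and a second *PSMB8* window has a GAANNGAAA match just after its start. GAANNGAAA was found in 4 of the 9 windows (*HLA-B*, *HLA-C*, *TAP2*, *PSMB8*) and in 7.66% of 34943 promoter windows. Only this exact spacing was searched. The *B2M* window holds gaaactgaaa and the *TAP1* window tttcgctttc (read on the other strand), similar letters that the pattern cannot match. They stay in lower case above. A window without a match, *B2M* and *TAP1* among them, is therefore not shown to lack an interferon response element. The NF-kappaB consensus was found in 4 windows (*HLA-B*, *HLA-C*, *TAP1*, *B2M*) against 11.3% of all, and CCAAT in 5 windows against 34.6% of all. A match is a description of the letters only.

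The libraries held between 68532611 and 98036494 estimated counts. TP63 stood at 25.4% of scramble in TE5 and 26.1% in KYSE140 with its shRNA, by normalized counts. SOX2 stood at 39.6% in TE5, but at 77.4% in KYSE140. CCAT1 itself was not analysed here. The 8 squamous markers summed to between 1190 and 1943 TPM (transcript abundance scaled for length and library size) in TE5 and between 12820 and 30550 in KYSE140, but *KRT14* was at most 0.546 TPM in TE5. The 6 leukocyte markers summed to at most 6.76 TPM in TE5 and 0.715 in KYSE140, 4 fibroblast markers to at most 26.3 and 44.8, and 2 endothelial markers to at most 9.28 and 0.921. None of these markers was at 0 in every library of a line. Fewer cells of a type and less RNA per cell cannot be told apart in such bulk data. The TE5 scramble library was run on another flow cell than the other TE5 libraries, and the KYSE140 scramble on another lane than its knockdowns, so a shift seen in each knockdown of a line and the run cannot be told apart.

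The heavy chains bind the peptide. *HLA-B*, a classical heavy chain, had 488 TPM in TE5 scramble, 984 with shTP63, 559 with shSOX2 and 587 with shCCAT1, and 194, 197 and 187 TPM in KYSE140 scramble, shTP63 and shSOX2. Every TE5 library was above every KYSE140 library. *HLA-C*, the other classical heavy chain, had 99.0, 169, 96.3 and 101 TPM in the same TE5 libraries and 97.8, 105 and 96.8 in KYSE140. Its levels overlapped between the lines. *HLA-E*, a non-classical heavy chain read by natural killer cells, had 299, 466, 270 and 301 TPM in TE5 and 141, 119 and 154 in KYSE140, with no overlap. *B2M*, the light chain that all of them need, was the most abundant of the 9 genes in every library, at 3482, 6212, 4402 and 4557 TPM in TE5 and 436, 516 and 492 in KYSE140.

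The peptide transporter was also lower in KYSE140. *TAP1* had 149, 265, 116 and 122 TPM in TE5 scramble, shTP63, shSOX2 and shCCAT1, and 19.5, 21.4 and 21.1 in KYSE140 scramble, shTP63 and shSOX2. Its partner *TAP2* had 60.0, 94.4, 43.0 and 63.9 TPM in TE5 and 14.0, 19.0 and 12.5 in KYSE140. For both genes the lines did not overlap. In TE5 scramble the *TAP2* retained-intron transcripts ENST00000485701 and ENST00000464100 had 28.4 and 13.2 TPM, against 3.31 and 0.745 in KYSE140 scramble. The protein-coding ENST00000374897 had 18.4 TPM in TE5 scramble and 9.98 in KYSE140 scramble. By normalized counts the TE5 to KYSE140 ratio of *TAP2* between the scramble libraries was 1.80. *NLRC5*, the co-activator, had 57.3, 94.7, 41.8 and 80.9 TPM in TE5 and 7.69, 9.09 and 9.85 in KYSE140, again without overlap.

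The immunoproteasome subunits showed the widest range. *PSMB8* (LMP7), a catalytic subunit, had 205, 319, 129 and 266 TPM in TE5 and only 0.610, 1.02 and 0.431 in KYSE140. *PSMB9* (LMP2), another catalytic subunit, had 141, 283, 101 and 206 TPM in TE5 and 15.2, 15.1 and 25.7 in KYSE140. In TE5 scramble the order by TPM was *B2M*, *HLA-B*, *HLA-E*, *PSMB8*, *TAP1*, *PSMB9*, *HLA-C*, *TAP2* and *NLRC5*, and in KYSE140 scramble *PSMB8* was last. With 1 library per condition, neighbours in that order cannot be separated by a replicate error.

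**Figure D1:**
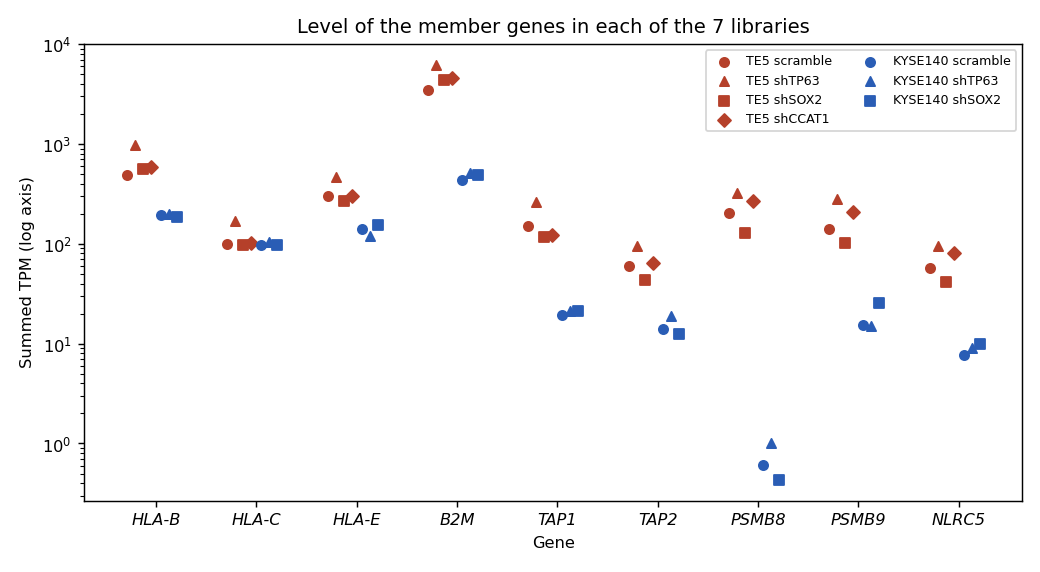
Summed TPM (log axis) of each of the 9 genes in the 7 libraries, TE5 in red and KYSE140 in blue, with 1 point per library and the shape giving the shRNA. *PSMB8* stands at 129 TPM or more in TE5 and at 1.02 or less in KYSE140, while the *HLA-C* points of the lines overlap.

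These line differences were tested with the cell line term of edgeR's quasi-likelihood test over 6 libraries (scramble, shTP63 and shSOX2 of both lines, with Benjamini-Hochberg adjustment over 23438 genes). The term compares these 2 lines only, takes the line difference to be the same under each shRNA, and was added after the data had been seen. Of the 9 genes, 8 were higher in TE5 and *HLA-C* did not pass an adjusted p of 0.1. None of the 9 was called lower. The background was wide, with 34.3% of all genes higher in TE5 and 31.8% lower. *PSMB8* had the largest difference among the 9, 7.92 ± 0.16 (SE) on the log2 scale (adjusted p = 7.9e-07). *B2M* was higher by 2.97 ± 0.15 (adjusted p = 8.1e-06), *PSMB9* by 2.85 ± 0.40 (adjusted p = 0.00071), *NLRC5* by 2.80 ± 0.36 (adjusted p = 0.00048) and *TAP1* by 2.76 ± 0.23 (adjusted p = 6.0e-05). The remaining differences were smaller, at 1.26 ± 0.18 for *HLA-B*, 1.04 ± 0.22 for *HLA-E* and 0.86 ± 0.19 for *TAP2*, whose adjusted p values lay between 0.0008 and 0.0068. For *HLA-C* the difference was 0.02 ± 0.16 (adjusted p = 0.91). HLA genes differ between people, and for the heavy chains allele and level cannot be told apart between lines.

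The size of the line difference varied with the shRNA for several genes. By normalized counts (estimated counts scaled by edgeR's TMM factors), the TE5 to KYSE140 ratio of *PSMB8* was 261 between the scramble libraries, 245 between the shTP63 libraries and 204 between the shSOX2 libraries. The ratio of *PSMB9* was 8.04, 14.8 and 3.13 in that order, and that of *NLRC5* was 9.09, 11.8 and 3.07. *B2M* stayed between 6.99 and 9.78. For *HLA-C* the ratio was 0.930, 1.35 and 0.833, so the direction itself differed between conditions. Whether the ratios differed between shRNAs was not tested, since 1 library per condition leaves no spread for it.

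*PSMB8* in KYSE140 rested on few reads. Its normalized count was 43.5 in scramble, 65.0 with shTP63 and 35.4 with shSOX2, against 11623, 16137 and 7409 in TE5. The main TE5 transcript, ENST00000374882, carried between 74.4% and 79.7% of the gene's counts in TE5 and was at 0 counts in KYSE140 scramble and shSOX2. The antisense gene *PSMB8-AS1* moved with it, with a normalized count of 1900 in TE5 scramble, 3067 with shTP63, 920 with shSOX2 and 3944 with shCCAT1, and of at most 30.2 in KYSE140. Reads of the sense and antisense genes cannot be told apart here.

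In the immunoproteasome, PSMB8, PSMB9 and PSMB10 take the places of the constitutive subunits PSMB5, PSMB6 and PSMB7. The *PSMB8* to *PSMB5* ratio of TPM was 1.07 in TE5 scramble, 1.92 with shTP63, 0.732 with shSOX2 and 1.37 with shCCAT1. In KYSE140 it was between 0.0023 and 0.0054. The *PSMB9* to *PSMB6* ratio was 0.838, 1.77, 0.630 and 1.45 in TE5 and between 0.060 and 0.097 in KYSE140. *PSMB10* stood below *PSMB7* in all 7 libraries, with ratios between 0.159 and 0.258 in TE5 and between 0.038 and 0.142 in KYSE140. Over the 7 libraries *PSMB5* ran from 167 to 205 TPM, *PSMB6* from 142 to 265 and *PSMB7* from 204 to 405. *PSMB6* was lower in TE5 by edgeR (-0.90 ± 0.11 on the log2 scale, adjusted p = 0.00042), as was *PSMB5* (-0.37 ± 0.11, adjusted p = 0.023), whereas *PSMB7* was higher (0.55 ± 0.11, adjusted p = 0.0043) and *PSMB10* was higher (2.29 ± 0.44, adjusted p = 0.0033).

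**Figure D2:**
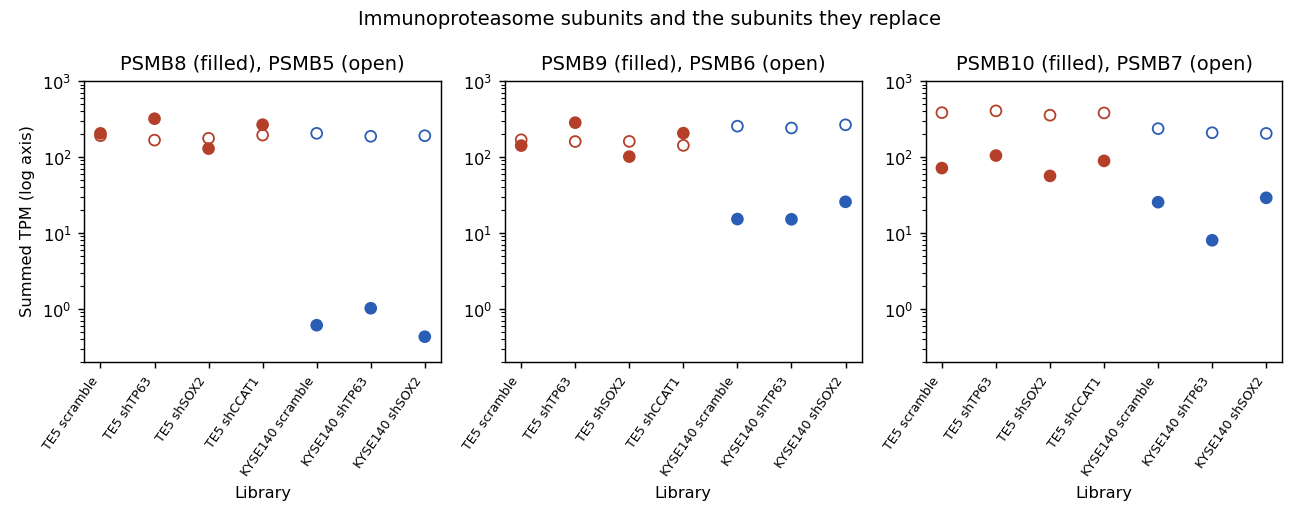
Summed TPM (log axis) of the immunoproteasome subunits (filled) and of the constitutive subunits they replace (open) in each library, TE5 in red and KYSE140 in blue. *PSMB8* is near *PSMB5* in TE5 (ratios of 0.732 to 1.92) and far below it in KYSE140.

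Next, each knockdown was compared with the scramble of its line, as log2 of the ratio of normalized counts with a pseudocount of 1. Brackets give 95% intervals, which cover counting error only and not the spread between cultures. In TE5 with shTP63 all 9 genes were higher than in scramble, by 0.47 to 0.84 on the log2 scale, and their median was 0.67, against 0.07 over all 24405 genes tested. *PSMB9* had the largest difference (0.84 [0.79, 0.89]), followed by *HLA-B* (0.73 [0.71, 0.75]), *B2M* (0.68 [0.67, 0.69]), *TAP2* (0.68 [0.63, 0.72]) and *TAP1* (0.67 [0.64, 0.69]). *HLA-C* was higher by 0.61, *NLRC5* by 0.57, *HLA-E* by 0.52 and *PSMB8* by 0.47. None of the 9 passed a log2 fold change of 1 or -1, which 14.8% and 5.61% of all genes did. All 9 were above 0 under every scaling tried, and 13241 of the 24405 genes were above 0 as well. Cell type markers moved in the same library. Of 8 squamous markers 3 passed -1, TP63 itself among them, with *KRT5* at -1.80 and *KRT6A* at -2.65. Of the 8, 7 were below 0, while *KRT17* stood at 0.96 (529 TPM in scramble and 1121 with shTP63). The summed level of the 8 was 1750 TPM against 1943 in scramble. Of the measured markers of other cells, 2 of 5 leukocyte, 2 of 3 fibroblast and 1 of 2 endothelial genes passed 1, with *COL3A1* at 2.64, *CDH5* at 2.28, and *CD3E* at 2.93 on 30.3 normalized counts. Summed levels went from 4.24 to 6.76 TPM for leukocytes, from 15.2 to 26.3 for fibroblasts and from 2.37 to 9.28 for endothelium, with 0 of these markers at 0 counts in either library. Their part in the result was not tested.

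In KYSE140 with shTP63 the same genes stayed close to scramble. Their median was 0.09, against 0.05 over all 21852 genes, and 6 were above 0 by TMM scaling, 8 when only the library total was used. *PSMB8* stood at 0.57 [-0.04, 1.23] and *HLA-E* at -0.28 [-0.31, -0.25]. *B2M* stood at 0.21, *NLRC5* at 0.19, *TAP2* at 0.16, *TAP1* at 0.09, *HLA-C* at 0.07, *HLA-B* at -0.03 and *PSMB9* at -0.04. None passed 1 or -1, against 9.01% and 4.27% of all genes. Of the squamous markers, TP63 and *KRT14* (-1.69) passed -1, and the sum of the 8 went from 19640 to 12820 TPM. None of the measured leukocyte, fibroblast or endothelial markers passed 1 or -1.

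With shSOX2 in TE5, 7 of the 9 genes were lower than in scramble, and their median was -0.34, against -0.01 over all 22726 genes. *NLRC5* had the largest difference (-0.90 [-0.95, -0.85], 53.6% of scramble), then *PSMB8* (-0.65 [-0.69, -0.61]), *TAP2* (-0.55 [-0.61, -0.50]), *PSMB9* (-0.46 [-0.52, -0.40]) and *TAP1* (-0.34 [-0.37, -0.31]). The heavy chains were nearer to 0, with *HLA-E* at -0.11, *HLA-C* at -0.02 and *HLA-B* at 0.12, and *B2M* was at 0.35 [0.34, 0.36]. So the transporter, the immunoproteasome and the co-activator were lower while the light chain was higher in this library. None passed 1 or -1, which 6.31% and 4.95% of genes did, but *NLRC5* stood at -1.21 when only transcripts annotated as protein coding were summed. It stood at -0.77 when 2 transcripts not in the annotation, listed between its own, were added. Of these, ENST00000308149 then held 5.74% of the gene's counts in scramble and 13.8% with shSOX2. Without them, the main *NLRC5* transcript, ENST00000262510, held 65.00% of the gene's summed counts in scramble and 49.6% with shSOX2. Of the 8 squamous markers 3 passed -1: SOX2 itself, *KRT6A* at -2.88, and *KRT14* at -1.87 on only 7.23 normalized counts. Of the 8, 4 were above 0 and 4 below, with a summed level of 1781 TPM. Past 1 were 2 of 3 fibroblast markers (*COL3A1* at 2.44), 1 of 2 endothelial (*CDH5* at 1.35) and 1 of 4 leukocyte markers, which summed to 14.7, 4.38 and 5.82 TPM, and *CD3E* was at 0. Their part in the result was not tested.

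With shSOX2 in KYSE140, where SOX2 was reduced less, 7 of the 9 genes were above scramble and the median was 0.24, against 0.06 over all 20747 genes. *PSMB9* stood at 0.90 [0.74, 1.07] and *NLRC5* at 0.67 [0.55, 0.79]. *B2M* was at 0.36, *TAP1* at 0.28, *HLA-E* at 0.24, *HLA-C* at 0.14, *HLA-B* at 0.12, *TAP2* at -0.06 and *PSMB8* at -0.29 [-1.07, 0.47]. By TPM, 5 rather than 7 genes were above 0. None passed 1 or -1, against 7.08% and 6.17% of all genes. *B2M* lay on the other side of 0 (-0.10) when only its protein-coding transcript was used, which held 1.14% of its summed counts there. The squamous markers *KRT17* (1.155) and *DSG3* (1.23) passed 1, and the sum of the 8 was 30550 TPM against 19640. Of the measured other markers, 1 of 2 leukocyte genes passed 1 (*CD14* at 1.62 on 14.7 normalized counts). Among 3 fibroblast genes, 1 passed 1 (*COL3A1* at 5.39, from 0 to 40.9 normalized counts), and the 1 endothelial gene did not. The part of these differences in the values was not tested.

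With shCCAT1 in TE5 the median was -0.02, the same size as that over all 24112 genes (0.02), with 4 genes above 0. *PSMB9* stood at 0.44 [0.39, 0.49], *B2M* at 0.30, *PSMB8* at 0.27 and *NLRC5* at 0.27. *TAP1* stood at -0.42 [-0.45, -0.40], *TAP2* at -0.12, *HLA-C* at -0.10, *HLA-E* at -0.05 and *HLA-B* at -0.02. With the library total alone, 8 genes were above 0, and the median of all genes was 0.19. None passed 1 or -1, against 11.9% and 6.05% of all genes. The squamous markers *KRT5* (-1.48) and *KRT6A* (-1.11) passed -1, and the sum of the 8 was 1190 TPM against 1943 in scramble. Of 5 measured leukocyte genes, 1 passed 1 (*CD3E* at 1.24 on 8.72 normalized counts) and 1 passed -1 (*CD79A*, at 0 counts). Of 2 fibroblast genes, *COL3A1* (-2.22) passed -1, and 0 of 2 endothelial genes passed 1 or -1. Their part in the result was not tested.

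**Figure D3:**
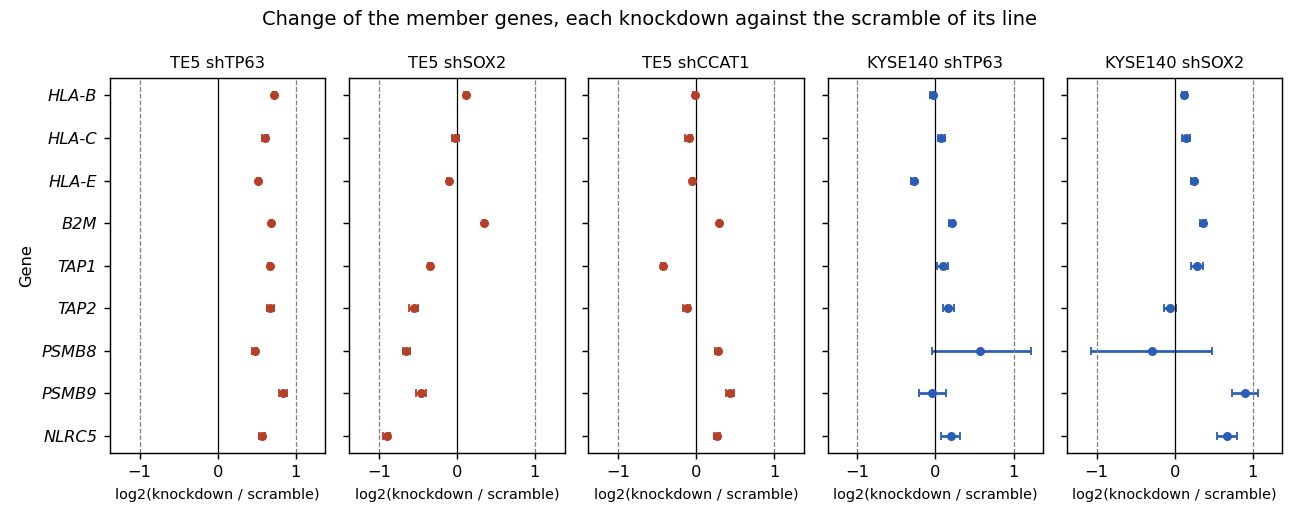
Log2 fold change of the 9 genes in each knockdown against the scramble of its line, with 95% counting intervals as bars and dashed lines at -1 and 1. In TE5 with shTP63 all 9 points lie between 0.47 and 0.84, and in TE5 with shSOX2 7 of 9 lie below 0.

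The 3 TE5 comparisons share 1 scramble library, as do both KYSE140 comparisons. Over both lines, edgeR's quasi-likelihood test with Benjamini-Hochberg adjustment called none of the 9 genes at an adjusted p of 0.1 upon silencing of TP63, where it called 0.939% of all genes. The log2 fold changes were all positive, from 0.16 ± 0.26 for *HLA-E* to 0.52 ± 0.16 for *PSMB8*, which had the lowest adjusted p (0.23). *B2M* followed with 0.46 ± 0.17 (adjusted p = 0.30), and both passed an unadjusted p of 0.05. DESeq2 also called none of the 9. The result depended on the KYSE140 shTP63 library. Without it, the TP63 term was the single TE5 shTP63 library against scramble, with the spread taken from the other groups and that lone library assumed to vary like them. In that fit 7 of the 9 genes were called higher, with *PSMB8* and *NLRC5* the exceptions, against 3.22% of all genes called higher. These calls restate the TE5 difference and are no second test of it.

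Upon silencing of SOX2, edgeR called 0 of the 9 genes, against 0.145% of all genes. *PSMB8* had -0.57 ± 0.17 (adjusted p = 0.39), the only one of the 9 with an unadjusted p under 0.05, and *B2M* 0.33 ± 0.17 (adjusted p = 0.65). The other 7 lay between -0.31 and 0.30. Upon silencing of CCAT1 in TE5, with 7 libraries in the fit and the lone shCCAT1 library assumed to vary like the others, edgeR again called 0 of the 9, against 0.00376% of all genes, and 0 had an unadjusted p under 0.05. Values ran from -0.42 ± 0.32 for *TAP1* to 0.51 ± 0.52 for *PSMB9*, with adjusted p values of 0.70 or more. DESeq2 called none of the 9 in either contrast.

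**Figure D4:**
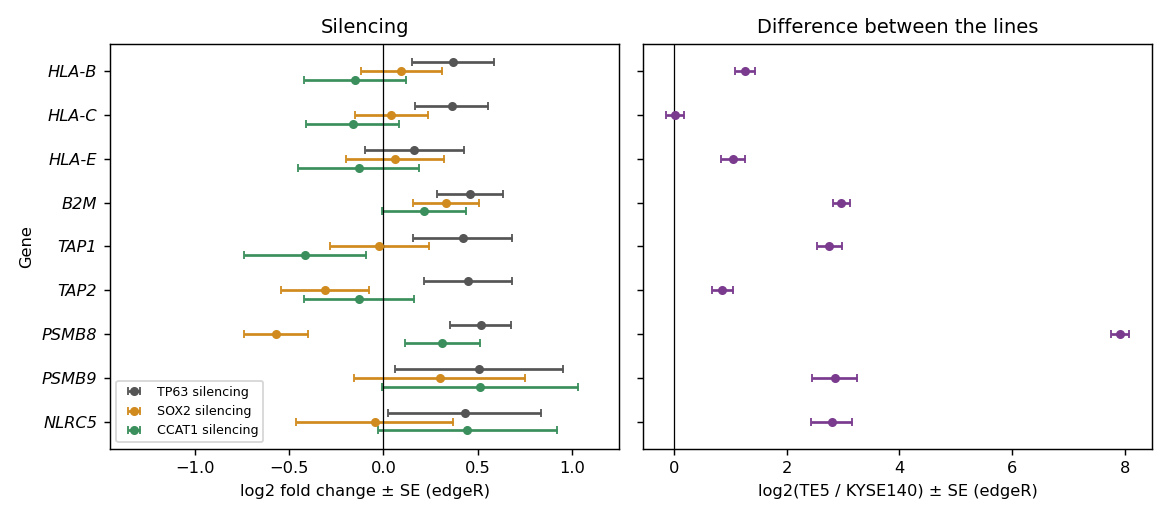
Estimates of edgeR's quasi-likelihood test with SE as bars, for silencing of TP63, SOX2 and CCAT1 (left) and for the difference between TE5 and KYSE140 (right, another scale). The silencing estimates lie between -0.57 and 0.52, while *PSMB8* differs by 7.92 between the lines.

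The sums hide some differences between transcripts. The *HLA-C* transcript ENST00000383329 held between 31.03% and 36.5% of the gene's counts in TE5 and at most 0.22% in KYSE140, and ENST00000376228 held 85.8% in KYSE140 scramble against 54.7% in TE5 scramble. *HLA-B* counts on the retained-intron transcript ENST00000481849 made up 10.7% in TE5 scramble and 16.3% to 21.1% in the TE5 knockdowns, against at most 2.04% in KYSE140. Most *B2M* counts were on transcripts now annotated as targets of nonsense-mediated decay, with ENST00000561424 at 54.8% to 60.5% of the summed counts in the 7 libraries. A further *B2M* transcript, ENST00000559220, is not in the annotation used and was left out of the sums. When added, it held 17.2% to 26.9% of the gene's counts in the 7 libraries. Likewise ENST00000425148, listed between *TAP1* transcripts, was left out. With it, *TAP1* in TE5 stood at 0.80 instead of 0.67 with shTP63. It stood at -0.20 instead of -0.34 with shSOX2 and at -0.17 instead of -0.42 with shCCAT1.

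The other genes of the pathway were taken from lists of 55 genes, 53 of which entered the edgeR fit. In TE5 with shTP63, 12 of 53 measured genes passed 1 and 0 passed -1, against 14.8% and 5.61% of all genes. These included 8 of 21 interferon signalling and response genes, with a list median of 0.65. *CXCL10*, a chemokine that attracts T cells, stood at 2.94 [2.83, 3.05], *IDO1*, an enzyme that breaks down tryptophan, at 2.28 [2.08, 2.50], the GTPases *GBP1* and *GBP2* at 2.03 and 1.53, *UBE2L6*, which conjugates ISG15, at 1.20, the antiviral gene *IFIT3* at 1.17 and *IFI27* at 1.05. Of 5 class II genes, 4 passed 1, among them *HLA-DRA* (1.42), *HLA-DRB1* (1.59) and *CD74* (1.79), all at low counts of at most 343 normalized. *HLA-DRA* and *CD74* also passed 1 with shCCAT1 (1.59 and 1.46). *CXCL10* was the only one of the 53 genes that edgeR and DESeq2 called upon silencing of TP63 (2.67 ± 0.44, adjusted p = 0.093), with 14.2 TPM in TE5 scramble and 121 with shTP63, and 0.232 and 1.08 in KYSE140. This edgeR call was lost in the 4 fits that called 0 genes in all: with unmatched transcripts kept, without the cell line block, and without either scramble library. Whether it held in the other alternative edgeR fits was not looked at. For SOX2, edgeR called 0 of the 53, with 4 at an unadjusted p under 0.05, and DESeq2 also called 0. For CCAT1, edgeR called 0, with 6 at an unadjusted p under 0.05, and DESeq2 called 2, the chaperones *CALR* and *PDIA3* of the peptide loading complex, which stood at -0.71 and -0.76 in TE5 and are named after their values were seen.

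In TE5 with shSOX2, 3 of 52 genes passed -1 and 0 passed 1, a share near that of all genes below -1 (4.95%). Among the 3, *MX1*, an antiviral GTPase, stood at -1.33 [-1.36, -1.30] and *IDO1* at -1.06. In KYSE140 with shTP63, 2 of 50 genes passed 1 and 2 passed -1, against 9.01% and 4.27% of all genes, among them *HLA-F*, a non-classical heavy chain, at 1.00 [0.54, 1.504] and *PSMB10* at -1.31 [-1.503, -1.13]. In KYSE140 with shSOX2, 7 of 50 passed 1 and 2 passed -1, against 7.08% and 6.17% of all genes. They included *IFIT3* (1.61), *OAS1*, a sensor of double-stranded RNA (1.43), *HLA-F* (1.40), *GBP2* (1.18), *SOCS1*, an inhibitor of JAK signalling (1.09), and the trimming peptidase *ERAP2* (1.02), and all but *ERAP2* had at most 419 normalized counts. The transcriptional regulators did not pass 1 or -1 in any comparison (0 of 12). Among them *IRF1*, a factor of class I promoters, stood at 0.22 in TE5 with shSOX2 and at 0.19 with shTP63, and at 0.75 and -0.29 in KYSE140, and at -0.09 with shCCAT1. *TAPBP* (tapasin), which holds the heavy chain at the transporter, stood at 0.38 with shTP63, 0.14 with shSOX2 and -0.41 with shCCAT1 in TE5, and at -0.29 with shTP63 and 0.07 with shSOX2 in KYSE140.

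Between the lines, 36 of the 53 genes were higher in TE5 by edgeR and 6 were lower, against 34.3% and 31.8% of all genes. By list, 16 of 21 interferon genes, 6 of 7 peptide loading and trimming genes, 6 of 12 transcriptional regulators, 4 of 5 class II genes, 3 of 7 proteasome partners and the 1 other class I gene tested were higher. *IRF1* was higher by 2.05 ± 0.20 (adjusted p = 0.00014), *TAPBP* by 1.69 ± 0.16 (adjusted p = 0.00012), *HLA-F* by 5.84 ± 0.29 (adjusted p = 7.4e-06) and *MX1* by 8.23 ± 0.40 (adjusted p = 6.9e-06). Interferon-responsive genes were thus among those higher in TE5, and their part in the difference of the 9 genes was not tested.

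The genes whose profile over the 5 comparisons was closest to the median of the 9 were sought among 12140 genes counted 100 times or more in all 7 libraries. The root mean square difference was 0.11 for *TRIM5*, *CASP10* and *OSBPL7*, 0.12 for *TRIM21* and 0.13 for *DNMBP*. *TRIM21*, an intracellular antibody receptor, stood at 0.78, -0.29 and 0.05 with shTP63, shSOX2 and shCCAT1 in TE5 and at 0.31 and 0.34 with shTP63 and shSOX2 in KYSE140. *TRIM5*, a restriction factor of retroviruses, stood at 0.53, -0.40, -0.04, -0.08 and 0.15 in the same order. In that order *CASP10* stood at 0.53, -0.27, 0.14, 0.17 and 0.32, and *OSBPL7* at 0.74, -0.16, -0.18, 0.10 and 0.24. *DNMBP* stood at 0.56, -0.25, 0.03, -0.03 and 0.04. The profiles of the 5 comparisons share scramble libraries, so this likeness is a description.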

How the data were processed

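RNA-Seq reads (100 bp, paired end) had been pseudoaligned by the authors with Kallisto to the hg19 Ensembl transcriptome. Per the file headers, the authors deposited an estimated count (not scaled between libraries) and a TPM value for each of 196354 transcripts in 7 libraries. Transcripts were summed to genes with GENCODE 44 on GRCh37, which held 182863 of them, and the other 13491 (6.31% to 6.55% of counts) were left out. That choice was made after a fit keeping them as single features had been seen. No member transcript lay off the primary assembly.

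Counts were scaled with TMM of edgeR 4.0.16 (R 4.3.3). A pair was compared where either library reached 10 counts for the gene, without a p-value, with exact binomial 95% intervals. The edgeR quasi-likelihood test (rounded counts, filterByExpr, cell line as block, 2 residual degrees of freedom, adjusted p under 0.1) treats the lines as replicates, so its p-values measure only the spread between these libraries, which may be technical. DESeq2 1.42.0 was an alternative. The scripts were tested on simulated data. The members and lists were chosen with earlier results of these data known. Named genes are the 9 members, set partners (*PSMB10*, *PSMB5*, *PSMB6*, *PSMB7*, *TAPBP*, *IRF1*, and 1 not reported here), listed genes past 1 or -1 with at least 100 counts, and the 5 genes of closest profile. Python 3.11.15 was used with numpy 2.4.6, pandas 2.3.3 and scipy 1.17.1.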

Additional observations from a re-analysis of the deposited data

Results flagged for a closer look

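Some of the 9 genes stood on opposite sides of the scramble in the lines upon the same silencing. These differences were not tested, since each line has 1 library per condition. With shTP63, *HLA-B* stood at 0.73 in TE5 and -0.033 in KYSE140, *HLA-E* at 0.52 and -0.28, and *PSMB9* at 0.84 and -0.042, on the log2 scale. With shSOX2, *NLRC5* stood at -0.90 in TE5 and 0.67 in KYSE140, *PSMB9* at -0.46 and 0.90, *TAP1* at -0.34 and 0.28, *HLA-E* at -0.11 and 0.24, and *HLA-C* at -0.019 and 0.14. The counting intervals included 0 for *HLA-B* and *PSMB9* with shTP63 in KYSE140 and for *HLA-C* with shSOX2 in TE5.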

How the results depend on the processing

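The median of the 9 genes kept its direction in all alternatives except with shCCAT1 in TE5. With shTP63 in TE5 it was 0.81 with the library total alone, 1.09 without scaling, 0.77 by TPM and 0.58 with protein-coding transcripts. With shSOX2 in TE5 it was -0.20 with transcripts assigned by their neighbours, an alternative chosen after seeing the data. With shCCAT1 it was -0.047 with DESeq2's size factors, 0.16 with the library total alone, 0.37 without scaling and 0.27 by TPM. In KYSE140 without scaling it was 0.67 with shTP63 and 0.40 with shSOX2, where it was also 0.21 with DESeq2's size factors, 0.14 with the library total alone, 0.11 by TPM and 0.12 with protein-coding transcripts. No scaling moved all genes by up to 0.62 (shTP63 in KYSE140), and the library total alone put them at 0.20 with shTP63 in TE5. Members past 1 or -1 numbered 0 in the 5 comparisons. Without scaling they were 6 (shTP63 in TE5), 1 (shTP63 in KYSE140) and 1 (shSOX2 in KYSE140), by TPM 2 (shTP63 in TE5), and with protein-coding transcripts 1 (shSOX2 in TE5). A threshold of 0.58 gave 6 with shTP63 and 2 with shSOX2 in TE5, and 2 with shSOX2 in KYSE140. Other pathway genes past this lower threshold numbered 19, 8, 6, 9 and 14 in the order of the report's TE5 (shTP63, shSOX2, shCCAT1) and KYSE140 (shTP63, shSOX2) comparisons. The next counts are of other pathway genes past 1 or -1. Without scaling 19 did so with shTP63 in TE5 and 8 in KYSE140. With protein-coding transcripts 2 did so with shTP63 in KYSE140, and by TPM 4 with shSOX2 in KYSE140. By TMM scaling, 12 passed 1 and 0 passed -1 with shTP63 in TE5. In KYSE140, 2 passed 1 and 2 passed -1 with shTP63, and 7 and 2 did so with shSOX2.

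For TP63, SOX2 and CCAT1, edgeR called 220, 34 and 1 genes in all. DESeq2 called 1477, 583 and 319, no filter gave 1211, 390 and 272, and keeping unmatched transcripts as single features gave 0, 1 and 0. Without the cell line block, TP63 and SOX2 gave 0 and 0. Leaving out 1 library at a time gave 0 to 2129 calls for TP63, 0 to 918 for SOX2 and 0 to 573 for CCAT1, with 0 in each contrast when either scramble library was left out. Of the 9 genes, 0 to 7 were called for TP63 over these, the 7 only without KYSE140 shTP63. The cause of these changes was not tested. The 8 calls between the lines were found under all alternatives run. Transcripts of the primary assembly only gave no other values, since no member transcript lay elsewhere. Beyond the cell line block, replicate numbers pair no samples, since each group holds 1 library. Depth limits *PSMB8* in KYSE140, with at most 65.0 normalized counts.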
